A study of Mus musculus with 27 samples.

Results

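The maturation of the normal mouse retina between postnatal day 14 (p14) and day 17 (p17) was described from the control animals of the OIR (oxygen-induced retinopathy) study, which were kept in normal room air and are called nOIR. The 12 mice compared were 6 nOIR p14 mice (S1, S2, S3, S5, S6 and S7) and 6 nOIR p17 mice (S1 to S6), out of 27 mice sequenced. They were chosen by label, and nOIR p14 mouse S4 was left out because the study set it aside for its lens RNA. All were pups of C57BL/6J wild-type mothers, of either sex, perfused with buffer before the retinas were taken, and each library held 1 retina or both retinas of a single mouse. Of the 40129 genes in the table, 18721 had a mean of at least 10 normalized reads (reads divided by a size factor of each mouse) over these 12 mice and were tested. Where the same ages were compared in OIR mice, these were 6 OIR p14 and 8 OIR p17 pups of the same strain, which had spent the week before p14 partly in high oxygen and had then been returned to room air.

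At these ages the mouse retina is finishing its development. Its neurons and Müller glia have all been born, the eyelids open at about the start of the interval, photoreceptors are still lengthening the outer segments that hold the visual pigment, and synapses between the layers are being refined. The vessel layers inside the retina are spreading and then settling, and endothelial sprouting fades as they do. Developing neurons typically exchange growth and cytoskeletal genes for channels and receptor subunits that allow fast signaling, and glia take up their metabolic support roles.

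Each mouse of the comparison had between 25650603 and 32033058 reads on genes (median 29640072), and 25529 to 27435 genes were above 0 in a mouse. Sex was unevenly spread, since Xist exceeded the Y-linked genes in 4 of 6 p14 mice and in 2 of 6 p17 mice. Lens RNA varied within both ages. The summed level of the 20 lens genes in the table, 18 of them tested, was 210.4 to 30797 normalized reads at p14 (median 997) and 441 to 17082 at p17 (median 3682). All 12 mice had RNA of the retina's own cell types, and Gnat1, the rod transducin subunit, lay at 337750 to 416540 normalized reads at p14 (median 355520) and 378750 to 528600 at p17 (median 477350). According to the study's methods the mice of each group came from fewer litters than mice, so that some shared a litter and were not fully independent. Which mice did so is not given in the sources used here, so litter and age cannot be told apart, and the part of litter or sex in the results was not tested beyond the Xist covariate, with which 114 genes were called higher and 91 lower at p17. The table gives gene symbols without coordinates.

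Few of the genes tested were called, which does not show that the rest were unchanged. Of the genes tested, 140 were higher at p17 (0.748% of the 18721) and 105 were lower (0.561%) by limma at an adjusted p under 0.05. Most changes were modest, with a median log2 difference of 0.49 among the genes called higher and of -0.58 among those called lower. Only 17 genes rose by more than 2-fold (0.0908% of those tested) and 14 fell by more than 2-fold (0.0748%). At the log2 difference of 2 that the study used as its own limit, 1 gene was left in each direction (0.00534% each), namely Etnppl, which was higher, and Gimap8, which was lower. Before adjustment, 1244 genes were higher (6.64%) and 1119 were lower (5.98%) at a p under 0.05. The 6 mice of an age lay entirely above the other 6 for 211 genes at p17 (1.13%) and entirely below for 173 (0.924%).

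**Figure D1:**
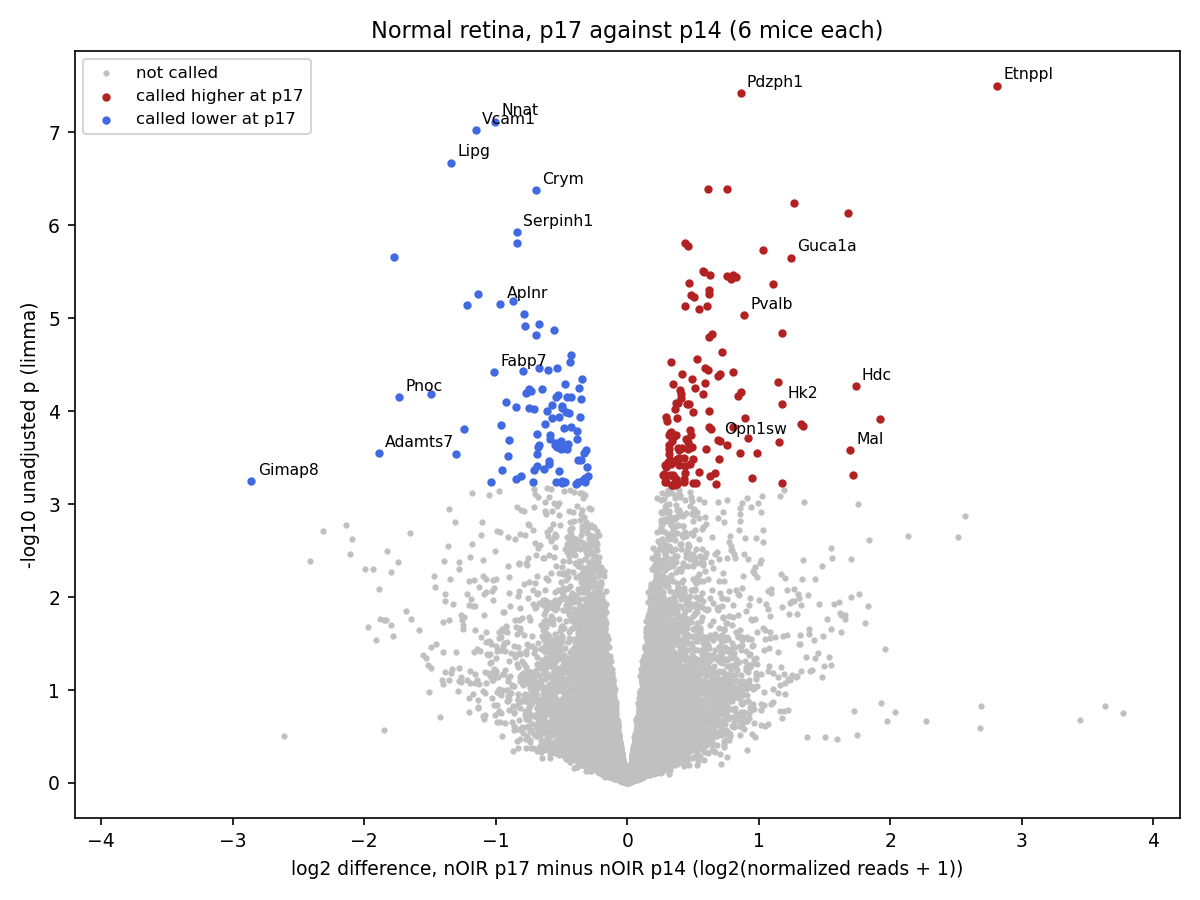
Log2 difference between nOIR p17 and nOIR p14 (horizontal axis) against -log10 of the unadjusted limma p (vertical axis) for the 18721 genes tested, with 6 mice at each age. Red points are the 140 genes called higher at p17, blue points the 105 called lower and grey points the rest. Etnppl stands alone at the upper right with a log2 difference of 2.81.

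The counts were sensitive to the method, to single mice and to scaling. DESeq2 gave 368 genes higher and 281 lower, the fit on all 4 groups 48 and 50, and a fit with a block of replicate numbers 71 and 38. Without the most lens-rich mouse of each age, 67 were higher and 38 lower. Apart from leaving out single mice, the alternatives gave 7 to 38 genes higher and 6 to 26 lower by over 2-fold. Leaving out 1 mouse gave between 65 and 191 genes called higher and between 47 and 143 called lower. Rescaling each mouse to the same total, which shifted the median of all genes to -0.04 on the log2 scale, gave 104 genes higher and 193 lower in place of 140 and 105. For this reason, each gene below for which leaving out a single mouse ended the call is given with the number of mice for which it did so. Where no such number is given, the call held with each of the 12 mice left out in turn. It could still be lost under other settings. Of these genes, Aldoc, BC055402, Bhlhe40, Col2a1, Crym, Cxcl12, Cyp2d22, Dbn1, Pvalb, Slc1a3, Slco1a4, Spp1, Tie1, Trpc1, Usp2 and Wdr66 were not called for age in nOIR mice in the fit on all 4 groups. BC055402, Bgn, Dbn1, Gnat2, Pygl, Slc1a3, Tie1 and Wdr66 lost the call without the most lens-rich mouse of each age, Fabp7 with p14 mouse S4 included and Hk2 with robust limma. With the block of replicate numbers, Bgn, Bhlhe40, Cx3cr1, Cyp2d22, Dbn1, Hdc, Hrh3, Pnoc, Prodh, Racgap1, Stx1a and Tie1 were not called. A stricter threshold, an adjusted p under 0.01, ends each call whose adjusted p printed below is larger than that, Hdc, Hrh3, Prodh, Racgap1 and Pnoc among them.

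The rod and cone lists each gave a pair of genes called higher. Guca1a encodes the guanylate cyclase activating protein that restores cyclic GMP after light, and it had 244 to 572 normalized reads at p14 (median 454) and 825 to 1131 at p17 (median 1008). Every p17 mouse exceeded every p14 mouse, with a log2 difference of 1.24 ± 0.17 (SE, limma adjusted p = 0.00245). Its neighbor in function Guca1b had 30482 to 43437 normalized reads at p14 (median 38354) and 41080 to 58182 at p17 (median 53429), and the ages overlapped slightly. The log2 difference of Guca1b was 0.49 ± 0.11 (SE, limma adjusted p = 0.0291), and the call was lost with 7 of the 12 mice left out. These were the members called among the 40 rod genes tested, 2 higher and 0 lower, where the background, which is the same for each list below, was 0.748% and 0.561%, and the list's median log2 difference was 0.09 against -0.00 over all genes.

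The log2 difference of Gnat1 was 0.33 ± 0.09 (SE, limma adjusted p = 0.108). It did not pass the threshold, and the ages overlapped. Of the 40 rod genes, 31 had a positive log2 difference. As these are whole retinas, more cells of a type and more RNA per cell cannot be told apart here or for any gene below.

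Among the 16 cone genes, 2 were called higher and 0 lower, 15 had a positive log2 difference, and the median was 0.24. Gnat2, the transducin subunit of cones, had 4213 to 5932 normalized reads at p14 (median 5735) and 6591 to 8326 at p17 (median 7433), with a log2 difference of 0.45 ± 0.09 (SE, limma adjusted p = 0.0167) and no overlap. Opn1sw, the short-wavelength cone opsin, showed a median of 19857 normalized reads at p14 (lowest 11704, highest 24837) and of 31248 at p17 (lowest 24939, highest 35141). The highest p14 mouse lay just under the lowest p17 mouse. The log2 difference of Opn1sw was 0.69 ± 0.14 (SE, limma adjusted p = 0.0268), lost with 5 of the 12 mice left out. Opn1mw, the opsin of medium wavelengths, was not called, with a log2 difference of 0.32 ± 0.12 (SE, limma adjusted p = 0.25).

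The promoter windows of 4 genes are shown because 3 of them carry the cone and rod results and Etnppl rose more than any other gene called. Each is 300 bases of RefSeq sequence on GRCm38.p6, from 250 bases before the gene start to 50 after it, 5′ to 3′ on the gene's strand. The capitals mark TAATCC or its reverse complement GGATTA, the letters recognized by the photoreceptor homeobox factor CRX. This motif was chosen after the gene values were known.
Guca1a, chr17:47400557-47400856, minus strand: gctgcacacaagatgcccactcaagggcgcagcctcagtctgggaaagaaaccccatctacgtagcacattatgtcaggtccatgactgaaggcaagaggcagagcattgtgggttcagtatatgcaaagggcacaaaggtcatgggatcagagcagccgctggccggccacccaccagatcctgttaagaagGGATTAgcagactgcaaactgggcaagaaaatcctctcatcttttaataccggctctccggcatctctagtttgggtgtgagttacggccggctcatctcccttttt
Gnat2, chr3:108092816-108093115, plus strand: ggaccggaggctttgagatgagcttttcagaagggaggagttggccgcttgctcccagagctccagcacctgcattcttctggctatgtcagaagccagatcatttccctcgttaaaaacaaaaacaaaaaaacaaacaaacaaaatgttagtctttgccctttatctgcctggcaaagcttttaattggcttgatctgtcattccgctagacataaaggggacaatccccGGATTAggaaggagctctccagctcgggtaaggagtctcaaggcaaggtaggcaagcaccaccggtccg
Opn1sw, chr6:29380464-29380763, minus strand: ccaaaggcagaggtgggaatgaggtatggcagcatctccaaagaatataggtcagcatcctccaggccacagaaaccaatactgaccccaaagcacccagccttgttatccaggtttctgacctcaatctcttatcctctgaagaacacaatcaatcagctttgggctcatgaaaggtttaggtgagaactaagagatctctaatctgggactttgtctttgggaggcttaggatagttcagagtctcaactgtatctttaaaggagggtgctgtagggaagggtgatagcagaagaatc
Etnppl, chr3:130617198-130617497, plus strand: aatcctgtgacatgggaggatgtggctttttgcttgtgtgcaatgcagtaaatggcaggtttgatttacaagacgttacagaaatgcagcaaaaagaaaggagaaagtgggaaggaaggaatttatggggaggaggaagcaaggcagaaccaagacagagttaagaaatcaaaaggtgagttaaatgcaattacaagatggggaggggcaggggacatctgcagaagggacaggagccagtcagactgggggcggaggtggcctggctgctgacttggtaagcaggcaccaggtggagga

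GGATTA began 57 bases before the start of Guca1a and 19 bases before that of Gnat2. Opn1sw and Etnppl had no match in these windows, and for Etnppl the window is that of the first of 2 starts listed. TAATCC on either strand was in 7.06% of the 32851 promoter windows of the RefSeq table. It was in 13 of the 145 windows found for genes called higher (8.97%, from 102 of the 140 genes) and in 6 of the 94 found for genes called lower (6.38%, from 73 of the 105 genes). Among windows of the rod and cone lists it was in 14 of 47 (29.8%). No window of Guca1b or Gnat1 was used here. A match is a description of the letters and was not tested as a binding site.

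Several genes of fast firing and mature transmission in neurons rose. Of the 15 subunits and calcium buffers listed as typical of mature neurons, 4 were called higher and 0 lower, and 14 had a positive log2 difference (median 0.30). Pvalb (parvalbumin, a calcium buffer of fast-firing neurons) had 199 to 349.6 normalized reads at p14 (median 256) and 441 to 582 at p17 (median 485), so the ages were apart. Its log2 difference was 0.89 ± 0.14 (SE, limma adjusted p = 0.00442). Kcnc2, a potassium channel that speeds repolarization, had 1043 to 1433 normalized reads at p14 (median 1174) and 1504 to 2506 at p17 (median 1911) and a log2 difference of 0.71 ± 0.13 (SE, limma adjusted p = 0.0123). Scn1a, a sodium channel of the axon, was higher by 0.45 ± 0.09 (SE, limma adjusted p = 0.0268) on the log2 scale, lost with 6 of the 12 mice left out.

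The 11 subunits listed as juvenile gave 0 calls in either direction by limma (0 higher and 1 lower at an unadjusted p under 0.05), with a median log2 difference of -0.03.

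Of the 32 synaptic genes tested, 2 were higher and 1 was lower (median log2 difference 0.12). Vamp1, a vesicle protein of the fusion machinery, had 1669 to 2341 normalized reads at p14 (median 1984) and 2647 to 3298 at p17 (median 2946). All p17 mice lay above all p14 mice, and the log2 difference was 0.58 ± 0.08 (SE, limma adjusted p = 0.00294). Stx1a, a syntaxin of conventional synapses, moved the other way, with 753 to 997 normalized reads at p14 (median 826) and 492.9 to 618 at p17 (median 585). Its log2 difference was -0.55 ± 0.09 (SE, limma adjusted p = 0.00602), again without overlap. Cplx1 (complexin 1) was higher by 0.29 ± 0.07 (SE, limma adjusted p = 0.0445), lost with 9 of the 12 mice left out.

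Other neuronal genes were named after their values were seen. Kcnj14, an inward rectifier potassium channel, had 5247 to 7177 normalized reads at p14 (median 6039.7) and 7563 to 9361 at p17 (median 9007) and a log2 difference of 0.54 ± 0.08 (SE, limma adjusted p = 0.00404). Hdc, the enzyme that makes histamine, was a low gene with 17.5 to 83.2 normalized reads at p14 (median 40.5) and 104 to 191 at p17 (median 128). Its log2 difference of 1.74 ± 0.32 (SE, limma adjusted p = 0.0146) was among the largest of the genes called. Hrh3, a histamine receptor, rose as well, with 161 to 226 normalized reads at p14 (median 181) and 251 to 333 at p17 (median 308) and a log2 difference of 0.69 ± 0.12 (SE, limma adjusted p = 0.0127). Both histamine genes had p17 mice that all exceeded the p14 mice.

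Trpc1, a cation channel subunit, had 1166 to 1596 normalized reads at p14 (median 1496) and 2117 to 2881 at p17 (median 2356), a log2 difference of 0.76 ± 0.09 (SE, limma adjusted p = 0.000975). Mef2c, a transcription factor of maturing neurons and of vessels, had 843 to 1588 normalized reads at p14 (median 1344) and 2173 to 2515 at p17 (median 2198), a log2 difference of 0.82 ± 0.12 (SE, limma adjusted p = 0.00294). Pdzph1, an adaptor with a PDZ domain, had 3782 to 5633 normalized reads at p14 (median 5178) and 8348 to 10188 at p17 (median 8975) and the second smallest p of all genes. Its log2 difference was 0.86 ± 0.09 (SE, limma adjusted p = 0.000354). In each of these genes the ages did not overlap.

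Markers of whole neuron classes gave few calls. Among the 22 amacrine genes 1 was higher, Ppp1r17, by 0.70 ± 0.15 (SE, limma adjusted p = 0.0273) on the log2 scale, lost with 5 of the 12 mice left out. Among the 18 ganglion cell genes 1 was higher, Chrnb3, a nicotinic receptor subunit, by 0.38 ± 0.09 (SE, limma adjusted p = 0.0469), lost with 10 of the 12. Among the 21 ON bipolar genes 0 were called by limma (2 higher and 2 lower at an unadjusted p under 0.05), and Grm6, the glutamate receptor of these cells, had a log2 difference of -0.15 ± 0.09 (SE, limma adjusted p = 0.501). Among the 10 horizontal cell genes 1 was lower, Ndrg1, a protein induced by stress and differentiation, with a log2 difference of -0.43 ± 0.07 (SE, limma adjusted p = 0.0098), and 0 were higher.

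**Figure D2:**
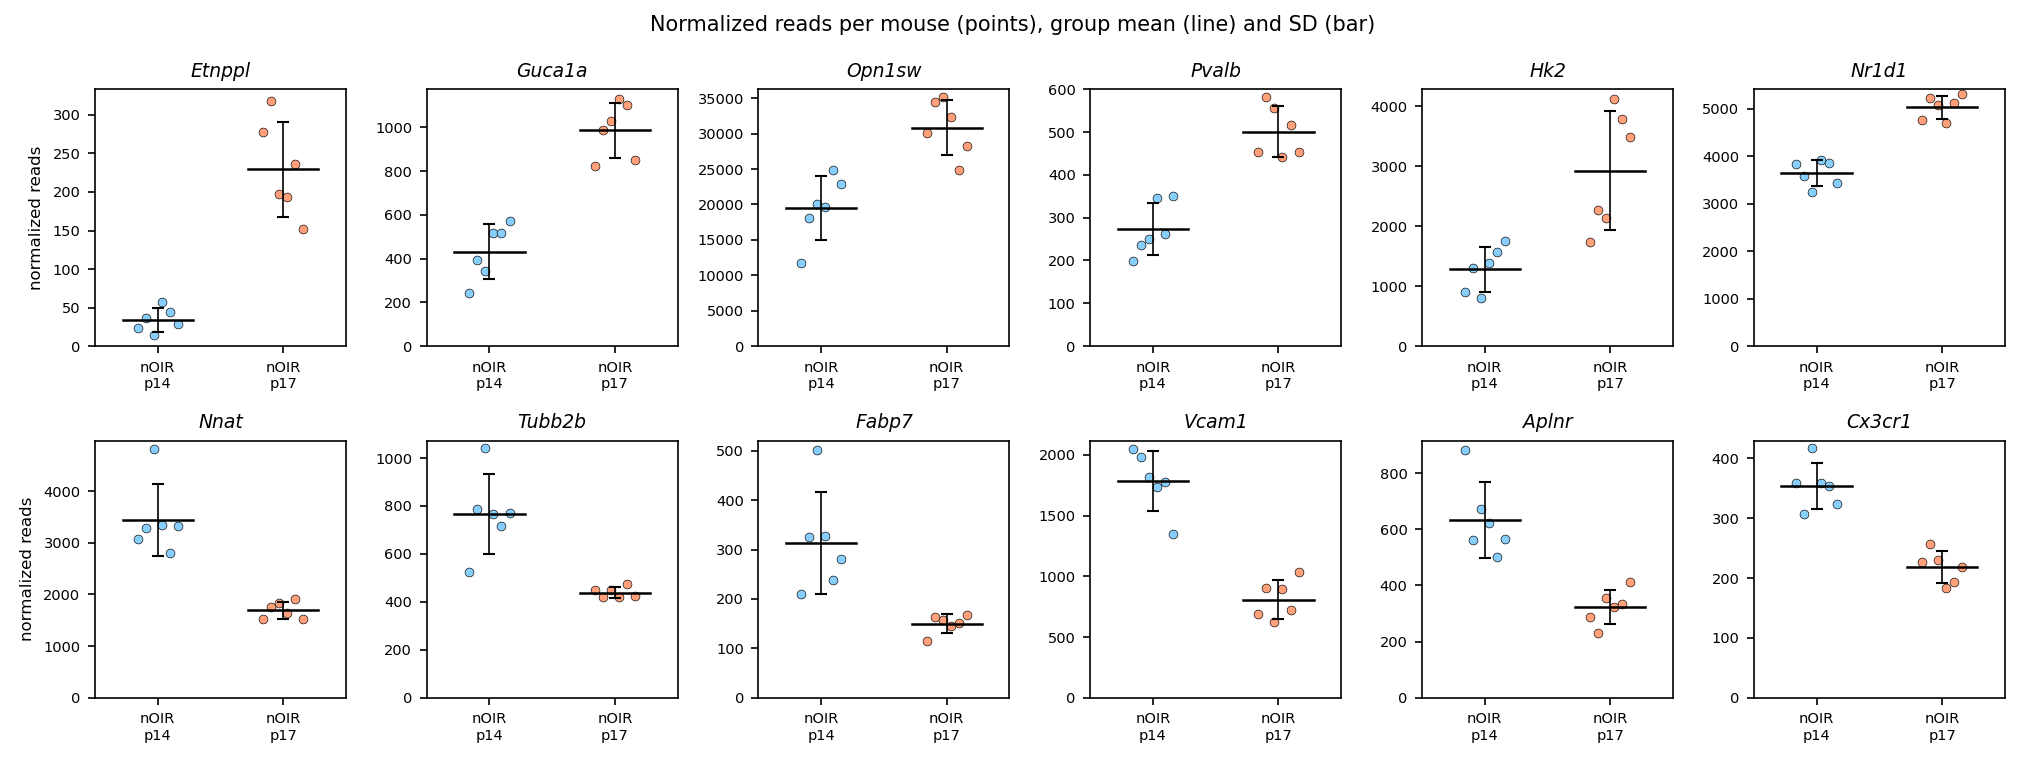
Normalized reads (vertical axis, linear, from 0) of 12 genes in the 6 nOIR p14 and the 6 nOIR p17 mice, each point a mouse, with the group mean as a line and the SD as a bar. For Etnppl all p17 points lie above 151 and all p14 points below 57, and the lower row shows genes whose p17 mice lie below their p14 mice.

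Etnppl had the largest rise of any called gene. This gene (ethanolamine-phosphate phospho-lyase, an enzyme of phospholipid breakdown known from astroglia) had 14.2 to 56.9 normalized reads at p14 (median 32.4) and 152 to 319 at p17 (median 217). The lowest p17 mouse was more than 2-fold above the highest p14 mouse. The log2 difference was 2.81 ± 0.29 (SE, limma adjusted p = 0.000354). Among the 22 Müller glia genes, 3 were higher and 2 lower (median 0.05).

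Named members went both ways. Cyp2d22, a cytochrome P450 of Müller cells, had 339 to 441 normalized reads at p14 (median 392) and 524 to 596 at p17 (median 563) and a log2 difference of 0.53 ± 0.09 (SE, limma adjusted p = 0.0104). Clu (clusterin, a secreted chaperone) was higher by 0.38 ± 0.09 (SE, limma adjusted p = 0.0475), lost with 8 of the 12 mice left out. Crym, a thyroid hormone binding protein, fell without overlap and had 4626 to 6390.5 normalized reads at p14 (median 4928) and 2763 to 3550.3 at p17 (median 3156). Its log2 difference was -0.69 ± 0.09 (SE, limma adjusted p = 0.000975). Slc1a3, the glutamate transporter of Müller cells, had 10638 to 13363 normalized reads at p14 (median 11126) and 8215 to 9611 at p17 (median 8877) and was lower, with a log2 difference of -0.37 ± 0.07 (SE, limma adjusted p = 0.0149).

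A pair of metabolic enzymes on no list were picked because they rose. Prodh, which opens proline breakdown, had 316 to 469 normalized reads at p14 (median 427) and 541 to 700.3 at p17 (median 657), a log2 difference of 0.61 ± 0.11 (SE, limma adjusted p = 0.0121). Pygl, a glycogen phosphorylase, had 423 to 579.8 normalized reads at p14 (median 529) and 663 to 914 at p17 (median 742), a log2 difference of 0.59 ± 0.10 (SE, limma adjusted p = 0.012). Among the 8 astrocyte genes tested of 9, Aldoc was the only member called. Gfap, the filament protein of astrocytes and stressed Müller cells, had 403 to 1174 normalized reads at p14 (median 492) and 339 to 799.7 at p17 (median 422) and was not called (log2 difference -0.26 ± 0.24 (SE, limma adjusted p = 0.719)).

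Genes of immature neurons and growing axons gave calls in a single direction. Of 30 tested, 7 were called lower and 0 higher (0.561% and 0.748% over all genes), 23 had a negative log2 difference, and the median was -0.18. Tubb2b, a tubulin of migrating and growing neurons, had 523 to 1041 normalized reads at p14 (median 767) and 419 to 473 at p17 (median 436). The p17 mice lay close together and below all p14 mice, with a log2 difference of -0.78 ± 0.13 (SE, limma adjusted p = 0.00549). Gap43, a growth cone protein, had 2231 to 3269 normalized reads at p14 (median 2518) and 1477 to 2001 at p17 (median 1832), a log2 difference of -0.53 ± 0.09 (SE, limma adjusted p = 0.012). Marcksl1, which binds actin at growing membranes, had 3967 to 6003 normalized reads at p14 (median 4642) and 2664 to 3678 at p17 (median 3312), a log2 difference of -0.54 ± 0.10 (SE, limma adjusted p = 0.0155).

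Fabp7, a fatty acid binding protein of radial glia and young glial cells, had 210.4 to 501 normalized reads at p14 (median 303) and 114 to 167 at p17 (median 154). It fell by more than 2-fold, with a log2 difference of -1.01 ± 0.18 (SE, limma adjusted p = 0.0121). Sox4, a transcription factor of newborn neurons, was lower, with a log2 difference of -0.54 ± 0.11 (SE, limma adjusted p = 0.0279), lost with 6 of the 12 mice left out. Tubb2a and Nrp1 were lower, with a log2 difference of -0.32 ± 0.07 (SE, limma adjusted p = 0.0455) and -0.39 ± 0.09 (SE, limma adjusted p = 0.0475), each lost with 11 of the 12 mice left out.

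Nnat (neuronatin, a small membrane protein of developing neurons that is expressed from the paternal allele) had 2809 to 4812 normalized reads at p14 (median 3306) and 1517 to 1921 at p17 (median 1698). It gave the smallest p of the genes called lower, and its log2 difference was -1.004 ± 0.11 (SE, limma adjusted p = 0.000447). The ages were apart, although p14 mouse S3 stood above its group. Dbn1 (drebrin, an actin protein of young spines) had 2539 to 3356 normalized reads at p14 (median 2989.5) and 1969.5 to 2434 at p17 (median 2152), a log2 difference of -0.44 ± 0.08 (SE, limma adjusted p = 0.0109). Ncan (neurocan), a matrix proteoglycan of the developing nervous system, was lower, with a log2 difference of -0.50 ± 0.11 (SE, limma adjusted p = 0.0291), lost with 7 of the 12 mice left out, and was the only call among 9 neural matrix genes.

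Proliferation genes gave few calls. Of 26 cell cycle genes tested among 30, 1 was lower and 0 higher, 21 had a negative log2 difference and the median was -0.38. Tpx2, a spindle factor, had 57.6 to 89.0 normalized reads at p14 (median 66.5) and 22.5 to 61.2 at p17 (median 33.0), with a log2 difference of -1.04 ± 0.24 (SE, limma adjusted p = 0.0468) that was lost with 11 of the 12 mice left out. Racgap1 and Cenpi are not on that list. Racgap1, a regulator of cell division and of neurite growth, had 391 to 523 normalized reads at p14 (median 462) and 240.1 to 344 at p17 (median 287), a log2 difference of -0.67 ± 0.12 (SE, limma adjusted p = 0.012). Cenpi, a centromere protein, was lower, with a log2 difference of -1.24 ± 0.25 (SE, limma adjusted p = 0.0237), lost with 4 of the 12 mice left out. Cdk1, the mitotic kinase, had 17.5 to 64.7 normalized reads at p14 (median 29.7) and 5.51 to 20.4 at p17 (median 14.1) and was not called (log2 difference -1.28 ± 0.39 (SE, limma adjusted p = 0.136)). Among 19 progenitor genes tested of 23, 0 were called by limma (1 higher and 2 lower at an unadjusted p under 0.05).

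Vessel genes gave calls in both directions. Of 20 endothelial genes 1 was higher and 2 lower (median -0.20), and of 16 sprouting genes tested of 18, 0 were higher and 2 lower, 15 with a negative log2 difference (median -0.26). Aplnr, the apelin receptor of sprouting endothelium, had 501 to 883 normalized reads at p14 (median 594) and 230.1 to 411 at p17 (median 329). All p17 mice lay below all p14 mice, with a log2 difference of -0.97 ± 0.15 (SE, limma adjusted p = 0.00388). Tie1, an endothelial receptor kinase, had 482 to 547 normalized reads at p14 (median 525) and 352 to 444 at p17 (median 382), a log2 difference of -0.44 ± 0.09 (SE, limma adjusted p = 0.0185). Kdr, the main receptor for VEGF, was lower, with a log2 difference of -0.54 ± 0.11 (SE, limma adjusted p = 0.0291), lost with 6 of the 12 mice left out, and Mcam, an adhesion molecule of vessel walls, one of -0.50 ± 0.12 (SE, limma adjusted p = 0.0469), lost with 12 of the 12.

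Adm (adrenomedullin) and Vegfa were not called, with log2 differences of -1.18 ± 0.29 (SE, limma adjusted p = 0.0546) and -0.18 ± 0.06 (SE, limma adjusted p = 0.152). Vcam1, an adhesion molecule that binds leukocytes and is also made by glia, had 1348 to 2046 normalized reads at p14 (median 1796) and 622 to 1033 at p17 (median 808). It gave one of the smallest p of the comparison, with a log2 difference of -1.15 ± 0.13 (SE, limma adjusted p = 0.000447) and no overlap. Lipg (endothelial lipase) had 157 to 265 normalized reads at p14 (median 199) and 62.4 to 90.3 at p17 (median 74.9), also without overlap, and a log2 difference of -1.34 ± 0.16 (SE, limma adjusted p = 0.000795).

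Barrier genes of the retinal vessels split. Of 20 tested, 1 was higher and 1 lower (median 0.06). Slco1a4, a transporter of organic anions at the vessel wall, had 351 to 558 normalized reads at p14 (median 468) and 636 to 902 at p17 (median 836), a log2 difference of 0.80 ± 0.12 (SE, limma adjusted p = 0.00294). Slc38a5, an amino acid transporter, was lower, with a log2 difference of -0.90 ± 0.19 (SE, limma adjusted p = 0.0268), lost with 5 of the 12 mice left out. Ly6c1, a surface protein of quiescent central nervous vessels, was higher by 0.90 ± 0.18 (SE, limma adjusted p = 0.02), lost with 2 of the 12. Cldn5, the tight junction claudin, was not called (log2 difference -0.23 ± 0.11 (SE, limma adjusted p = 0.403)). Cxcl12, a chemokine of vessel walls and neurons, rose, with 342 to 488 normalized reads at p14 (median 408) and 578 to 832 at p17 (median 702) and a log2 difference of 0.76 ± 0.11 (SE, limma adjusted p = 0.00294).

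Genes outside the lists, picked because they fell, include some of the extracellular matrix, which is no count of matrix genes as a group. Serpinh1, the chaperone of collagen folding, had 969.9 to 1330.3 normalized reads at p14 (median 1145) and 489 to 784 at p17 (median 626), a log2 difference of -0.84 ± 0.11 (SE, limma adjusted p = 0.00203). Bgn (biglycan), a small proteoglycan, had 123 to 210.4 normalized reads at p14 (median 184) and 73.0 to 118 at p17 (median 92.3), a log2 difference of -0.92 ± 0.18 (SE, limma adjusted p = 0.0167). Htra3, a secreted protease, was lower, with a log2 difference of -0.84 ± 0.11 (SE, limma adjusted p = 0.00225). In each of the 3 the ages were apart. Of 18 pericyte and smooth muscle genes tested of 20, 1 was lower, Ndufa4l2, with a log2 difference of -0.68 ± 0.15 (SE, limma adjusted p = 0.0291), lost with 7 of the 12 mice left out, and of 18 collagen genes tested of 19, 0 were called by limma (0 higher and 4 lower at an unadjusted p under 0.05, and 1 lower by DESeq2). Col2a1 and Col5a3, collagen chains that are not on that list, were lower, with a log2 difference of -0.65 ± 0.12 (SE, limma adjusted p = 0.0149) and -0.72 ± 0.17 (SE, limma adjusted p = 0.0468), the latter lost with 10 of the 12 mice left out.

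The summed level of the 20 endothelial genes was 12908 to 16424 normalized reads at p14 (median 14868) and 11510 to 13332 at p17 (median 12396), so that the ranges overlapped in part. Much of this sum was Kdr, which had 5592 to 8584 normalized reads at p14 (median 7212) and 4053 to 6101 at p17 (median 4576), while Flt1 on the same list had 951 to 1357 normalized reads at p14 (median 1200) and 1358 to 1566 at p17 (median 1469). The summed level of the pericyte and smooth muscle genes was 27001 to 33640 normalized reads at p14 (median 30971) and 29639 to 39501 at p17 (median 37282). Most of it was Vtn (vitronectin), with 17555 to 23135 normalized reads at p14 (median 20354) and 19845 to 29833 at p17 (median 27573), whereas 15 of the 18 members had a negative log2 difference (median -0.15), so this sum does not describe the list. The part of vessel cell number in the vessel results was not tested.

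Microglia genes gave 1 call. Of 20 tested, 17 had a negative log2 difference (median -0.25), 1 was called lower and 0 higher. Cx3cr1, the fractalkine receptor by which microglia sense neurons, had 307 to 418 normalized reads at p14 (median 357) and 184 to 256 at p17 (median 222). No p17 mouse reached the lowest p14 mouse, and the log2 difference was -0.70 ± 0.11 (SE, limma adjusted p = 0.00631). P2ry12, the purine receptor of resting microglia, had 123 to 272 normalized reads at p14 (median 232) and 152 to 269 at p17 (median 195) and was not called (log2 difference -0.11 ± 0.19 (SE, limma adjusted p = 0.855)). Spp1 (osteopontin), on the list of activated microglia genes but also made by retinal ganglion cells, was higher by 0.72 ± 0.12 (SE, limma adjusted p = 0.00928) on the log2 scale and was the only call among the 13 members tested of 19.

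Some glycolysis genes rose. Of 20 tested, 4 were higher and 0 lower, 19 had a positive log2 difference, and the median was 0.27. Hk2, the hexokinase that feeds aerobic glycolysis of photoreceptors, had 793 to 1742 normalized reads at p14 (median 1342) and 1738 to 4118 at p17 (median 2879). The ages touched by a few reads, and the log2 difference was 1.17 ± 0.23 (SE, limma adjusted p = 0.0167). Aldoc, the brain aldolase, had 10747 to 15384 normalized reads at p14 (median 13431) and 16548 to 18896 at p17 (median 17532), a log2 difference of 0.41 ± 0.08 (SE, limma adjusted p = 0.0155). Gpi1 and Pfkm were higher by 0.29 ± 0.06 (SE, limma adjusted p = 0.02) and 0.31 ± 0.07 (SE, limma adjusted p = 0.0256), lost with 3 of the 12 and 4 of the 12 mice left out.

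Respiratory chain genes gave 0 calls by limma (1 higher and 0 lower at an unadjusted p under 0.05). Among 29 nuclear encoded members tested of 30 the median was -0.10, and among the 8 mitochondrially encoded members tested of 13 it was 0.22. Cholesterol synthesis gave 0 calls among 20 genes (0 higher and 2 lower at an unadjusted p under 0.05, 1 lower by DESeq2), with a median of -0.04.

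The clock genes that rose were repressors of the oscillator and an output factor. Of 20 tested, 3 were higher and 0 lower (median 0.13). Nr1d1 (REV-ERB alpha), a repressor within the clock, had 3253 to 3912 normalized reads at p14 (median 3708) and 4703 to 5312 at p17 (median 5092), and the ages were far apart for their spread. Its log2 difference was 0.47 ± 0.06 (SE, limma adjusted p = 0.00226). Bhlhe40, another repressor, had 793 to 1078 normalized reads at p14 (median 976) and 1132 to 1506 at p17 (median 1342), a log2 difference of 0.47 ± 0.09 (SE, limma adjusted p = 0.0167). Hlf, an output factor, was higher by 0.38 ± 0.08 (SE, limma adjusted p = 0.0337), lost with 8 of the 12 mice left out, while its relative Dbp was not called (log2 difference 0.27 ± 0.08 (SE, limma adjusted p = 0.13)).

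Usp2, a clock-controlled deubiquitinase named after its value was seen, had 2203 to 2879 normalized reads at p14 (median 2512) and 3214 to 3575 at p17 (median 3528), a log2 difference of 0.47 ± 0.07 (SE, limma adjusted p = 0.00307). Sgk1, a kinase induced by glucocorticoids, had 1364 to 2048 normalized reads at p14 (median 1651) and 2270.1 to 2837 at p17 (median 2535), a log2 difference of 0.62 ± 0.09 (SE, limma adjusted p = 0.00347), and was the only call among 12 hormone response genes tested of 13. Of 15 immediate early genes tested of 18, 1 was lower, Nr4a1, with a log2 difference of -0.48 ± 0.10 (SE, limma adjusted p = 0.0291), lost with 8 of the 12 mice left out, and Fos was not called (log2 difference -0.28 ± 0.12 (SE, limma adjusted p = 0.366)). The hour of day at which each mouse was killed is not given in the sources used here, and its part in the clock and immediate early results was not tested.

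Of the genes called with a log2 difference beyond 1 and no overlap, those not yet described include several of less known retinal function. Traf3ip3, an adaptor of immune signaling, had 127 to 244 normalized reads at p14 (median 178) and 333 to 414 at p17 (median 364), a log2 difference of 1.03 ± 0.14 (SE, limma adjusted p = 0.00229). Adamtsl5, a matrix protein, had 74.9 to 130.5 normalized reads at p14 (median 122) and 186 to 281 at p17 (median 244), a log2 difference of 1.11 ± 0.16 (SE, limma adjusted p = 0.00307). BC055402 had 70.8 to 196 normalized reads at p14 (median 144) and 239 to 336 at p17 (median 300.5), a log2 difference of 1.15 ± 0.21 (SE, limma adjusted p = 0.014). These 3 kept their call with each mouse left out, and BC055402 lost it under other settings, as given above.

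Other risers were low genes with fragile calls. Mal, a membrane protein of myelin and of epithelia, had 9.14 to 48.2 normalized reads at p14 (median 27.7) and 53.1 to 104 at p17 (median 70.0), and its log2 difference of 1.69 ± 0.36 (SE, limma adjusted p = 0.0294) was lost with 7 of the 12 mice left out. No other myelin gene was called among the 6 tested of 13. En2 (a homeobox factor) and Ifit3b (an interferon-induced gene) were higher by 1.72 and 1.17 on the log2 scale, lost with 10 of the 12 and 9 of the 12 mice left out.

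Among the fallers, Kif19a, a kinesin that limits the length of cilia, had 388 to 845 normalized reads at p14 (median 665) and 172 to 337 at p17 (median 295), a log2 difference of -1.22 ± 0.19 (SE, limma adjusted p = 0.00388). Pnoc, the precursor of nociceptin, had 53.9 to 110.3 normalized reads at p14 (median 60.9) and 9.91 to 40.4 at p17 (median 22.7), a log2 difference of -1.73 ± 0.33 (SE, limma adjusted p = 0.0155). AW551984 had 62.2 to 123 normalized reads at p14 (median 105) and 20.7 to 60.7 at p17 (median 31.0), a log2 difference of -1.49 ± 0.28 (SE, limma adjusted p = 0.0154). Adamts7, a matrix protease, and Smim43, a small membrane protein, had log2 differences of -1.89 and -1.30, each lost with 7 of the 12 mice left out. Gimap8, a GTPase of lymphocytes, had 10.2 to 29.3 normalized reads at p14 (median 15.8) and 0 to 13.9 at p17 (median 0.531), which overlapped, and its log2 difference of -2.86 ± 0.67 (SE, limma adjusted p = 0.0468) was lost with 11 of the 12 mice left out.

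**Figure D3:**
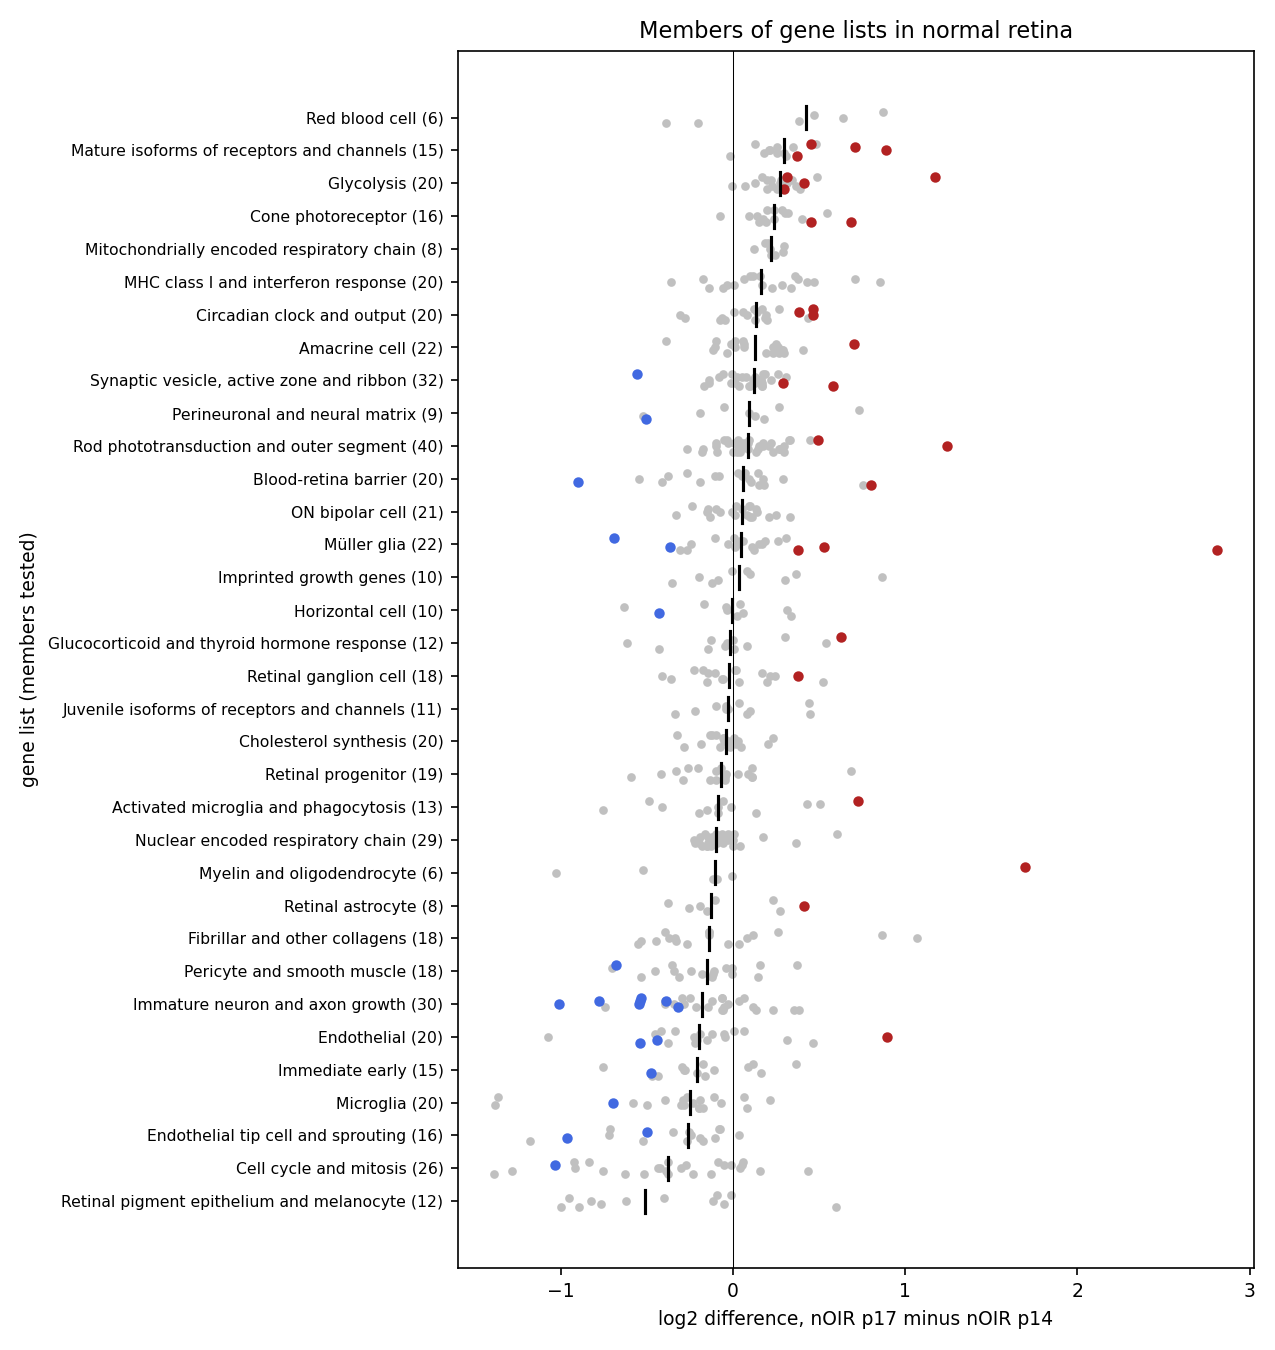
Log2 difference between nOIR p17 and nOIR p14 (horizontal axis) of each tested member of 34 gene lists (rows, number tested in brackets), lens and sex-linked lists left out. Red and blue points are members called higher and lower, grey points the rest, and black bars list medians, which run from -0.51 for pigment epithelium genes to 0.43 for red blood cell genes.

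Over all 36 lists, 669 genes were named, 622 were tested, 27 were called higher and 21 lower, where the background over all genes was 0.748% and 0.561%. Lists of tissue that borders the retina gave 0 calls by limma, with 0 of 18 lens genes, 3 of 12 pigment epithelium genes and 1 of 6 red blood cell genes lower at an unadjusted p under 0.05 and 0 higher. DESeq2 called 1 red blood cell gene lower. Their median log2 difference was 0.84 for 18 lens genes, -0.51 for 12 pigment epithelium genes and 0.43 for 6 red blood cell genes. The 20 genes of MHC class I and interferon response gave 0 calls by limma (4 higher and 0 lower at an unadjusted p under 0.05, 2 higher by DESeq2) with a median of 0.16. The 10 imprinted growth genes tested of 13 also gave 0 (1 higher and 1 lower at an unadjusted p under 0.05, 1 lower by DESeq2). By edgeR, 0 members of the lists without a limma call were called.

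The same ages were then compared in OIR mice, which are other animals of the same study and which therefore bear on whether a change of normal retina was also present after oxygen exposure. Of the 140 genes higher at p17 in nOIR mice, 78 (55.7%) were called higher in OIR mice and 0 lower, where the background in OIR mice was 6.16% higher and 2.81% lower. The median log2 difference of these 140 was 0.49 in nOIR mice, which chose them, and 0.38 in OIR mice. Of the 105 genes lower in nOIR mice, 32 (30.5%) were called lower in OIR mice and 13 were called higher. Their median was -0.58 in nOIR and -0.23 in OIR mice.

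Many maturation genes moved alike in sign in nOIR and OIR mice. The sign was the same for 121 of the 140 genes that rose and 71 of the 105 that fell. Over all genes tested, 8483 of 18721 had a positive log2 difference in OIR mice. The genes named next are examples. The log2 difference in OIR mice was -0.77 ± 0.13 (SE, adjusted p = 0.000156) for Nnat, -0.80 ± 0.17 (SE, adjusted p = 0.00277) for Crym and -0.49 ± 0.12 (SE, adjusted p = 0.00585) for Gap43. Guca1a was higher by 0.91 ± 0.20 (SE, adjusted p = 0.00313), Hk2 by 1.35 ± 0.20 (SE, adjusted p = 3.01e-05), Mef2c by 1.03 ± 0.10 (SE, adjusted p = 9.94e-08) and Nr1d1 by 0.31 ± 0.07 (SE, adjusted p = 0.0025). For these 7 genes the difference between the age effects was not called, which does not show that the effects were equal. The difference was 0.23 ± 0.19 (SE, adjusted p = 0.659) for Nnat, -0.34 ± 0.29 (SE, adjusted p = 0.69) for Guca1a and -0.15 ± 0.10 (SE, adjusted p = 0.551) for Nr1d1.

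The difference between the age effects, OIR change minus nOIR change, was tested directly in a fit on all 4 groups (26 mice). It was called in 413 genes as higher in OIR (2.21% of those tested) and in 46 as lower (0.246%). Among the 105 genes that fell in normal retina, 26 had a difference that was higher in OIR and 0 one that was lower. Among the 140 that rose, 1 had a higher and 6 had a lower difference. Both contrasts use the nOIR mice, so these counts are not independent of how the genes were chosen.

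**Figure D4:**
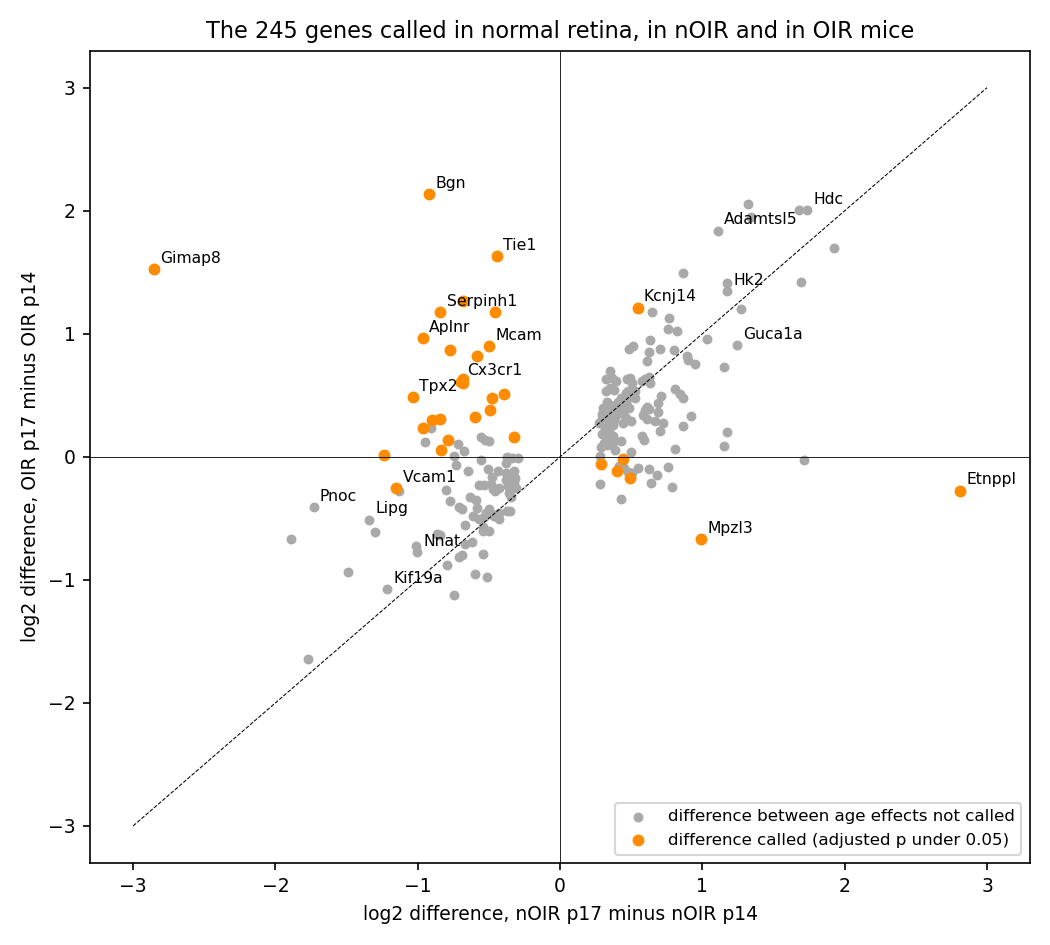
Log2 difference between p17 and p14 in nOIR mice (horizontal axis) and in OIR mice (vertical axis) for the 245 genes called in normal retina, with the dashed line marking equal differences. Orange points are the 33 genes for which the difference between the age effects was called, most of them at the upper left, lower with age in nOIR mice and higher with age in OIR mice.

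Etnppl is the clearest case among the genes that rose. In OIR mice it had 18.1 to 64.9 normalized reads at p14 (median 28.05) and 3.30 to 92.4 at p17 (median 27.7). These levels overlapped those of nOIR p14 mice, and no OIR p17 mouse reached the lowest nOIR p17 mouse. Its age effect in OIR mice was -0.27 ± 0.46 (SE, adjusted p = 0.781) on the log2 scale, and the difference between the age effects was -3.09 ± 0.68 (SE, adjusted p = 0.00855).

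Kcnj14 rose in both conditions and more in OIR mice, where it had 1929 to 3392 normalized reads at p14 (median 2900.4) and 5627 to 8362 at p17 (median 6333). The difference was 0.67 ± 0.16 (SE, adjusted p = 0.0181). Mpzl3, a membrane protein related to myelin protein zero, was higher in nOIR mice by 0.99 ± 0.21 (SE, limma adjusted p = 0.0306), lost with 7 of the 12 mice left out, and had a negative age effect in OIR mice of -0.67 ± 0.26 (SE, adjusted p = 0.116). The difference was -1.66 ± 0.38 (SE, adjusted p = 0.0133).

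Some of the genes that fell had the opposite sign in OIR mice, among them Aplnr, Serpinh1, Bgn, Tie1 and Cx3cr1. Others kept a negative sign there without passing the test, such as Lipg with a log2 difference of -0.51 ± 0.24 (SE, adjusted p = 0.206), Kdr with -0.23 ± 0.14 (SE, adjusted p = 0.342) and Col2a1 with -0.12 ± 0.18 (SE, adjusted p = 0.766). Aplnr had 242 to 834 normalized reads at p14 (median 557) and 777 to 1149.5 at p17 (median 1013) in OIR mice, and its difference was 1.93 ± 0.29 (SE, adjusted p = 0.000107). Serpinh1 had 1198 to 1962 normalized reads at p14 (median 1426) and 2254 to 5127 at p17 (median 3386), with a difference of 2.02 ± 0.24 (SE, adjusted p = 3.27e-06). Bgn had 102 to 380.2 normalized reads at p14 (median 277) and 779 to 1182 at p17 (median 1088), with a difference of 3.06 ± 0.30 (SE, adjusted p = 1.78e-07). Every OIR p17 mouse exceeded every mouse of the other 3 groups for Serpinh1 and Bgn.

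Tie1 had 238 to 611 normalized reads at p14 (median 376) and 1064 to 1266 at p17 (median 1196) in OIR mice, a difference of 2.07 ± 0.20 (SE, adjusted p = 1.5e-07). Cx3cr1 had 316 to 637 normalized reads at p14 (median 399) and 563 to 800.2 at p17 (median 673), a difference of 1.31 ± 0.20 (SE, adjusted p = 0.000172). For Ndufa4l2, Mcam and Nrp1, whose nOIR calls were fragile, the differences were 1.28, 1.40 and 0.91. Vcam1 stayed flatter in OIR mice, with 921 to 1579 normalized reads at p14 (median 1220.3) and 755 to 1433 at p17 (median 963), and its difference was 0.90 ± 0.20 (SE, adjusted p = 0.0105).

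The differences given for Etnppl, Kcnj14, Mpzl3, Aplnr, Serpinh1, Bgn, Tie1, Cx3cr1, Ndufa4l2, Mcam, Nrp1 and Vcam1 were called with each of the 26 mice left out in turn. By list, 15 of the 20 endothelial genes had a difference called higher in OIR mice, as did 12 of 16 sprouting genes, 12 of 18 pericyte and smooth muscle genes and 7 of 20 microglia genes, where the share over all genes was 2.21%. The list medians in OIR mice were 1.22 for endothelial, 1.10 for sprouting and 0.69 for microglia genes. Red blood cell genes moved with these, with a median of 3.72 in OIR mice, 5 of 6 called higher with age there and 3 differences called higher. Hba-a1, a globin gene, had 13.6 to 134 normalized reads at p14 (median 38.3) and 123 to 2376 at p17 (median 580.4) in OIR mice. The part of red blood cells in these results was not tested. In the immature neuron list, 11 of 30 genes were lower and 1 was higher with age in OIR mice (2.81% and 6.16% over all genes), with a median of -0.38. Glycolysis gave 15 of 20 genes higher in OIR mice and 0 differences called.

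**Figure D5:**
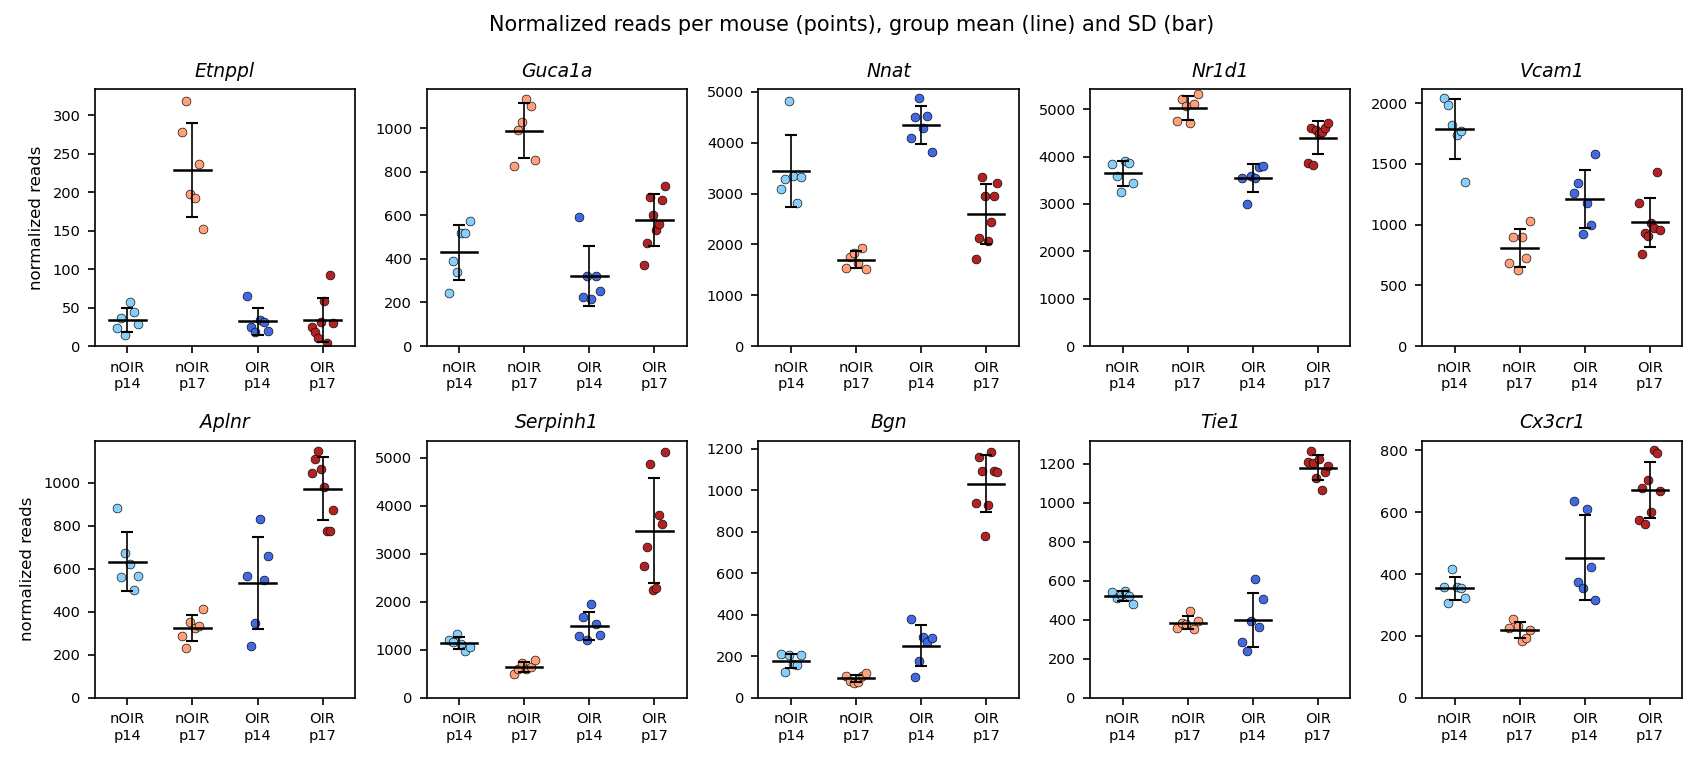
Normalized reads (vertical axis, linear, from 0) of 10 genes in nOIR p14, nOIR p17, OIR p14 and OIR p17 mice (6, 6, 6 and 8 mice), each point a mouse, with the group mean as a line and the SD as a bar. Etnppl is high in nOIR p17 mice only, while Aplnr, Serpinh1, Bgn, Tie1 and Cx3cr1 are lower at p17 than at p14 in nOIR mice and higher at p17 in OIR mice.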

How the data were processed

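Whole retinas of 27 mice were sequenced as single reads, and 12 nOIR mice are the subject here. The authors aligned reads with STAR 2.7.8a, counted them on genes with featureCounts 2.0.1 without strand, and deposited a signal of normalized reads (counts divided by a DESeq2 size factor per mouse, with PCR copies kept). The authors' deposited group means, log2 fold changes and adjusted p-values compare OIR with nOIR mice and were not used.

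Values plus a pseudocount of 1 were taken as log2. Genes averaging 10 or more normalized reads in the 12 mice were tested with limma 3.58.1 (eBayes with a trend, two-sided, Benjamini-Hochberg adjustment over all genes tested) in R 4.3.3. Log2 differences are on this scale and understate changes of low genes. The age effect in OIR mice and the difference between the age effects came from a limma fit on 4 groups (26 mice). In the 12 mice, 100% of the values gave whole reads (tolerance 0.001) once multiplied by the step of the mouse, and edgeR 4.0.16 and DESeq2 1.42.0 were run on them as alternatives. No pair of mice within an age was a copy, as the chi-square of their reads was 9.39 or more per degree of freedom. The fits were tested on simulated data.

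Members and gene lists were chosen with earlier results of these data known. Genes were named by 3 rules, namely up to 12 genes per direction with the smallest p among those called with a log2 difference beyond 1 and no overlap (lens genes and symbols that begin with Gm and a digit or end in Rik left out), the 4 members with the smallest p in each list, and a fixed set of markers. Rule 1 was met by 10 genes per direction. Some genes that these rules name are not reported here. Outside these rules, and chosen after their values were seen, are Kcnj14, Hrh3, Trpc1, Mef2c, Pdzph1, Clu, Prodh, Pygl, Sox4, Tubb2a, Nrp1, Dbn1, Racgap1, Cxcl12, Serpinh1, Bgn, Htra3, Col2a1, Col5a3, Usp2, Dbp, Gimap8, Mpzl3 and the genes of the closing observations.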

Additional observations from a re-analysis of the deposited data

Results flagged for a closer look

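Single mice stood apart from the other 5 of their age in 19 of 214 gene and age groups checked by Dixon's test, where chance flags about 1 in 20 groups. The values are normalized reads. In nOIR p17 mouse S1 they were low for Guca1b (41080.0), Opn1mw (8130.2), Clu (20118), Gpi1 (23746), Fabp7 (114.5) and Ndrg1 (8271). In nOIR p14 mouse S1 they were low for Gnat2 (4213) and Ppp1r17 (340.1). In nOIR p14 mouse S3, Nnat (4812), Crym (6390.5) and Ndrg1 (15292) were high while Prodh (315.6) and Pdzph1 (3782) were low. In nOIR p17 mouse S4, Fos (591) and Smim43 (18.7) were low and Mef2c (2515) was high. In nOIR p17 mouse S6, Usp2 (3214) was low and Col2a1 (2182) was high, and Ppp1r17 was high in nOIR p17 mouse S3 (1089).

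The difference between the age effects (OIR change minus nOIR change, log2 scale, limma on 26 mice) passed an adjusted p under 0.05 for 25 of 107 genes checked. Over all 18721 genes tested it was called higher in OIR mice for 2.21% and lower for 0.246%. Of the 107 genes, 91 were called for age in nOIR mice, which also enter this contrast. The count of 25 is therefore not independent of how the genes were chosen. The difference was below 0 for Etnppl (-3.09) and Mpzl3 (-1.66). Of the genes that rose in normal retina, Kcnj14 rose more in OIR mice (0.67). Among vessel, pericyte and matrix genes it was 1.93 for Aplnr, 2.49 for Adm, 1.40 for Mcam, 2.07 for Tie1, 0.91 for Nrp1, 1.203 for Slc38a5, 0.90 for Vcam1, 1.72 for Cldn5, 0.83 for Vegfa, 1.28 for Ndufa4l2, 3.13 for Cd248, 2.02 for Serpinh1, 3.06 for Bgn and 0.89 for Htra3. Among cell division genes it was 1.52 for Tpx2, 1.25 for Cenpi and 2.11 for Cdk1. It was 1.31 for Cx3cr1, 4.38 for Gimap8, 0.48 for Tubb2a, 0.95 for Nr4a1 and 1.06 for Fos. Of these 25 calls, those of Fos and Slc38a5 were lost when single mice were left out.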

How the results depend on the processing

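The counts of genes moved with the setting more than the direction of any named gene did. Of 3199 values for 107 named genes under alternatives, 0 changed direction, 2615 kept their side of the threshold, 557 no longer passed and 27 newly passed. Some alternatives keep the main log2 difference and could not change direction. These are the adjusted p under 0.01, robust limma, the fit on all 4 groups and an exact permutation test. The permutation test was read at an unadjusted p under 0.05 and gave 8 of the 27 that newly passed. Of 91 called genes, 20 were called under every setting and with each mouse left out. From 140 genes higher and 105 lower, the fit on all 4 groups gave 48 and 50, the block of replicate numbers 71 and 38, DESeq2 368 and 281, leaving out the most lens-rich mouse of each age (nOIR p14 S5 and nOIR p17 S3, chosen after seeing the data) 67 and 38, and an adjusted p under 0.01 gave 31 and 17. With all genes above 0 tested 81 were higher, with log2 Cryaa as a covariate 228 were higher, and with each mouse rescaled to the same total 193 were lower. From 17 genes higher by over 2-fold, all genes above 0 gave 11, the fit on 4 groups 9, the Cryaa covariate 38, DESeq2 27, lens-rich mice left out 11 and an adjusted p under 0.01 gave 7. From 14 lower by over 2-fold, the block gave 8, DESeq2 26 and an adjusted p under 0.01 gave 6. From 413 differences higher in OIR, the block gave 258 and an adjusted p under 0.01 gave 219, and from 46 lower in OIR, the block gave 17, lens-rich mice left out 29 and an adjusted p under 0.01 gave 10. The cause of these shifts was not tested. Other settings (edgeR with 134 and 108, nOIR p14 mouse S4 included with 134 and 105, log2 Xist as a covariate with 114 and 91) stayed within 1.5 times.

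Leaving out a mouse gave 65 to 191 genes higher, 47 to 143 lower, 10 to 24 higher and 7 to 16 lower by over 2-fold, 325 to 476 differences higher in OIR and 27 to 65 lower. For genes higher, the count fell by over 1.5 times without nOIR p14 S2 (69) or S3 (74) and without nOIR p17 S2 (74), S4 (65), S5 (86) or S6 (77). For genes lower it did so without nOIR p14 S2 (62) or S3 (47) and without nOIR p17 S2 (65), S3 (68), S4 (54) or S6 (69). For over 2-fold it did so without nOIR p14 S3 (11 higher, 7 lower) or nOIR p17 S2 (10 higher), and for differences lower in OIR without nOIR p17 S2 (30), S4 (29) or S6 (30) or OIR p14 S6 (27).

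Whether replicate numbers pair the mice is not given in the sources used here. With the block of replicate numbers, Bgn, Bhlhe40, Cx3cr1, Cyp2d22, Dbn1, Hdc, Hrh3, Pnoc, Prodh, Racgap1, Stx1a and Tie1, whose calls held with each mouse left out, were not called. The correlation of same-numbered mice, as deviations from their group means, ran from -0.13 (S6) to 0.34 (S1) over 5 numbers. For S1 and S5 the mouse of the same number fitted best, and for S2, S3 and S6 a mouse of another number fitted better. Depth limits low genes, and Cdk1 or Gimap8 with medians under 30 normalized reads at either age carry wide errors. For the difference between the age effects, edgeR and DESeq2 were not run.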

Other observations

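Further genes called are given as values, having been picked after their values were known, and no group of genes was counted or tested with them. Rsph9, a radial spoke protein, had 373 to 595 normalized reads at p14 (median 415) and 218 to 347 at p17 (median 256), a log2 difference of -0.71 ± 0.14 (SE, limma adjusted p = 0.0174). Wdr66, a protein linked to the radial spokes, had 882 to 1101 normalized reads at p14 (median 992) and 613 to 796 at p17 (median 751), a log2 difference of -0.46 ± 0.09 (SE, limma adjusted p = 0.0155). Both calls held with each of the 12 mice left out. Dnai2, an intermediate chain of axonemal dynein, was lower, with a log2 difference of -0.54 ± 0.13 (SE, limma adjusted p = 0.0468), lost with 10 of the 12 mice left out.

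The fibroblast growth factors Fgf1 and Fgf2, which act on neurons and glia, were higher by 0.46 ± 0.10 (SE, limma adjusted p = 0.0275) and 0.64 ± 0.13 (SE, limma adjusted p = 0.0237), each lost with 5 of the 12 mice left out. Fgf2 had 252 to 389.8 normalized reads at p14 (median 306) and 400.4 to 618 at p17 (median 483). Potassium channel subunits beside Kcnc2 and Kcnj14 were also among the genes called higher. Kcnab2, a beta subunit, had 5428 to 6610 normalized reads at p14 (median 5854) and 6690 to 8513 at p17 (median 7624), a log2 difference of 0.36 ± 0.07 (SE, limma adjusted p = 0.0174), lost with 2 of the 12 mice left out. Kcnj9 and Kcnab3 were higher by 0.46 ± 0.10 (SE, limma adjusted p = 0.0291) and 0.39 ± 0.09 (SE, limma adjusted p = 0.0337), lost with 7 of the 12 and 10 of the 12.

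The main axes of variation between the 12 mice did not follow age. In a principal component analysis of the genes tested, the first 2 components held 16.9% and 13.8% of the variance and mixed the ages, while on the third, with 12.7%, all p17 mice lay below all p14 mice.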
